A study of Mus musculus with 6 samples.

Results

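The genes described here make cholesterol and fatty acids or regulate that synthesis through the sterol regulatory element-binding proteins (SREBPs). They are 34 named genes, 23 of sterol synthesis and its control and 11 of fatty acid synthesis and its control. Each was read from the microarray probe sets that the platform annotation pairs with that gene symbol alone, and where a gene had several, the brightest by its mean over all 6 arrays was used. Of the 34 genes, 31 had such a probe set, among 22180 genes of the whole array. All 31, which are 21 sterol and 10 fatty acid genes, passed the filter on dim genes, as did 15526 genes in all. Acat2 was not named by the annotation, and the probe sets of Idi1 and Scd2 carried a second gene symbol, so these 3 genes were not analysed here.

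Affymetrix arrays measured gene expression in mouse leukaemia cells of the B-cell acute lymphoblastic kind (B-ALL) that carry the BCR-ABL fusion oncogene. In the DHA group, 3 samples had received dihydroartemisinin (DHA), the active metabolite of the artemisinin antimalarials, at 312 nM and for 4 h. In the vehicle group, 3 samples had received dimethyl sulphoxide (DMSO) and are also recorded at 4 h, although their titles give no time. The growth protocol names p185 BCR-ABL cells, with or without the T315I kinase mutation, and the genotypes Arf-/- or p53-/-. Both groups share the oncogene, and the labels do not tell which of these lines the samples came from. The extraction protocol also mentions an earlier time, whereas the treatment protocol and the titles of the DHA samples name 4 h. Separate cultures are not stated in the labels, so p-values rest on a spread between samples that may be technical. In such bulk samples fewer expressing cells and less RNA per cell cannot be told apart.

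SREBPs are transcription factors made as precursors in the membrane of the endoplasmic reticulum, bound to the escort protein SCAP. When membrane sterols are plentiful, INSIG proteins hold SCAP and the precursor there. When sterols are scarce, SCAP carries the precursor to the Golgi apparatus, where proteases release the active factor, which binds sterol regulatory elements in promoters. The product of Srebf2 mainly drives cholesterol genes and that of Srebf1 mainly drives fatty acid genes, and NF-Y, a factor that binds the CCAAT box, commonly acts beside them. Dividing leukaemia cells use both pathways to build membrane.

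Promoter windows from RefSeq (GRCm38.p6), each from 250 bases before to 50 bases after an annotated transcription start, were found for 25 of the 31 genes, in 33 windows, as 5 genes had several. Fdps, Fdft1, Sqle, Stard4, Scd1 and Fads1 had none. Windows are shown for Msmo1, Lss and Insig1, the sterol genes with the smallest p-values that had a window, for Elovl6, a fatty acid gene that was lower in every DHA sample, and for Hmgcs1, which was chosen after its motifs were seen. They are printed 5′ to 3′ on the strand of the gene. Capitals mark 2 motifs searched on both strands, TCACNCCA, the core of a sterol regulatory element, and CCAAT, the NF-Y box, which reads ATTGG on the other strand. These motifs do not overlap in the windows shown.
Msmo1: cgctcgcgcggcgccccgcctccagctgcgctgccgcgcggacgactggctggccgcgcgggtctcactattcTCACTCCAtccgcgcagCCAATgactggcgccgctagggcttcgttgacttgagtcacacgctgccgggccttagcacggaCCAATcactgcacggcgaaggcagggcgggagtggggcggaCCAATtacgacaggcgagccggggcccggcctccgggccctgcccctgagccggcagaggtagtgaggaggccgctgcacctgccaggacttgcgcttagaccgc
Lss: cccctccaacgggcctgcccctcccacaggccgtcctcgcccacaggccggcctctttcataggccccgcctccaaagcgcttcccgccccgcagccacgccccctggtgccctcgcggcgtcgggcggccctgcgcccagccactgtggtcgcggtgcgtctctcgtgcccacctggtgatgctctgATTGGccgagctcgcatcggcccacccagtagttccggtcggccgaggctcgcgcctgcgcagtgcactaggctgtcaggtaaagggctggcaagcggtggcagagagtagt
Insig1: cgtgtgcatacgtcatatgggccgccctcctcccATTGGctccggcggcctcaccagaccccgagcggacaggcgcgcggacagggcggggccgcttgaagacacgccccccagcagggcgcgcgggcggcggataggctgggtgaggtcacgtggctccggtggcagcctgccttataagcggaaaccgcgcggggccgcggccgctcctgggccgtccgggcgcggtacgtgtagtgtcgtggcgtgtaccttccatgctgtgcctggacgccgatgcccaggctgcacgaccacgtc
Elovl6: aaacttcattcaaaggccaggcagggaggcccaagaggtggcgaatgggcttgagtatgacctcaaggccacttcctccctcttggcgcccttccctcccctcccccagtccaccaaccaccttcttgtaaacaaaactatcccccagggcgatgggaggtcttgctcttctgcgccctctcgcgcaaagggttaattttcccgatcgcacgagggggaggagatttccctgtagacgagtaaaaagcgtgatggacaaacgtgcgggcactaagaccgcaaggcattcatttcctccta
Hmgcs1: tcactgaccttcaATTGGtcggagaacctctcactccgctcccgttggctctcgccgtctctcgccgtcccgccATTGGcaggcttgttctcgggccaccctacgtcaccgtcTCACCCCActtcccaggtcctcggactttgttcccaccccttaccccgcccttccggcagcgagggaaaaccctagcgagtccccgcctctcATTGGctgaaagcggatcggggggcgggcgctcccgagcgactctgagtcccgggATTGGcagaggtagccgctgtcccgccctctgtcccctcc
The windows lie at chr8:64733529-64733828 on the minus strand for Msmo1 and on the plus strand at chr10:76531355-76531654 for Lss, chr5:28071162-28071461 for Insig1, chr3:129532136-129532435 for Elovl6 and chr13:119690101-119690400 for Hmgcs1. The Msmo1 window held 1 TCACNCCA and 3 CCAAT matches. The Hmgcs1 window held 1 and 4. Lss and Insig1 held 1 CCAAT match each, and Elovl6 held neither motif. Over the 33 windows, TCACNCCA was present in 3 (9.09%), those of Srebf2, Hmgcs1 and Msmo1, against 4.36% of all 32851 windows and 4.16% of the 15107 windows of tested genes. CCAAT was present in 22 windows (66.7%), against 37.4% of all windows and 36.8% of those of tested genes. These windows belonged to 21 of the 25 genes, among them the fatty acid genes Srebf1, Acly, Acss2, Fasn and Elovl5. Ebp, a sterol gene that was lower in every DHA sample, was also among them. A match describes the letters of a window and is not evidence of binding.

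The arrays resembled each other closely, with Pearson correlations across probe sets between 0.993 and 0.995. Of 18 B-lineage markers, 15 had a probe set of their own, and all 15 passed the filter. Their mean level was 10.11 to 10.22 in DHA and 10.14 to 10.27 in vehicle samples, on the log2 scale. Cd79a and Cd79b, which encode the signalling chains of the B-cell receptor, lay between 12.57 and 12.75 on all 6 arrays, and the transcription factor gene Pax5 between 10.77 and 11.00. Vpreb1, a surrogate light chain gene of B-cell precursors, lay between 4.51 and 4.94, close to the filter level of 4.52, and Ms4a1, which encodes CD20, varied most within the groups, between 6.45 and 7.51 in DHA and between 6.44 and 7.61 in vehicle samples. At an adjusted p of 0.05, limma, a linear model with a moderated standard error (SE), called 0 of the 15 (0.0902% of all tested genes), with 9 nominally higher and 6 lower. At an unadjusted limma p at or under 0.05 it gave 0 higher and 3 lower (20%, against 6.08% of all tested genes), the recombinase gene Rag2 (-0.53), Cd24a (-0.16) and the surrogate light chain gene Igll1 (-0.12). All 3 were lower in every DHA sample, with limma adjusted p-values from 0.253 to 0.363, and Ebf1 was higher in every DHA sample (0.13; limma adjusted p = 0.416). Cd24a had 2 probe sets of its own, and only the brighter is given. In other marker lists, 6 of 14 T and NK cell, 8 of 14 myeloid, 4 of 10 erythroid and 9 of 12 stromal genes passed the filter, and none of these was called. At an unadjusted limma p at or under 0.05 there were 2 higher stromal genes, Pecam1 (0.18) and Cdh5 (0.13). That is 22.2% of the tested stromal genes, against 5.94% of all tested genes. Limma adjusted p-values were 0.220 for Pecam1 and 0.413 for Cdh5. Of the 9 tested stromal genes, 4 were nominally higher and 5 lower. No other gene reached that unadjusted p in these 4 lists. Their mean levels were 6.21 to 6.28 in DHA and 6.16 to 6.31 in vehicle samples for T and NK cells, and 5.46 to 5.47 in DHA and 5.37 to 5.53 in vehicle samples for myeloid cells. They were 5.30 to 5.32 in DHA and 5.24 to 5.28 in vehicle samples for erythroid cells, and 6.517 to 6.605 in DHA and 6.497 to 6.583 in vehicle samples for stromal cells. The part of these cell types in the values below was not tested.

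No gene of either pathway passed the test for a difference between DHA and vehicle. The test was limma with Benjamini-Hochberg adjustment over 15526 genes and a threshold of 0.05. It called 14 genes in all, or 0.0902% (0.0837% higher and 0.00644% lower), so a count of 0 among 31 genes lies near that background. The smallest adjusted p of a sterol gene was 0.0974, for Msmo1, and that of a fatty acid gene was 0.322, for Fads1. At an unadjusted p at or under 0.05, limma gave 4 sterol genes higher (Msmo1, Fdft1, Lss and Insig1) and 2 lower (Ebp and Scap), and 1 fatty acid gene higher (Fads1) and 1 lower (Elovl6). Over all tested genes the same rule gave 5.94% higher and 6.08% lower.

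Most sterol genes lay slightly above their vehicle levels with DHA, while fatty acid genes were divided. Of 21 sterol genes, 17 (81.0%) were higher with DHA, and the median log2 fold change over the list was 0.066. Of 10 fatty acid genes, 4 (40%) were higher, with a median of -0.023. Over all tested genes 51.4% were higher, with a median of 0.0027. Groups did not overlap, with every DHA sample higher, in 6 sterol genes (28.6%) and 1 fatty acid gene (10%), against 7.64% of all tested genes. Every DHA sample was lower in 1 sterol gene (4.76%) and 1 fatty acid gene (10%), against 8.19%. The list medians were not tested, and the sterol median moved to 0.13 without DHA replicate 2, to 0.12 without vehicle replicate 2, to 0.042 without DHA replicate 3 and to 0.043 without vehicle replicate 3. The fatty acid median turned positive without DHA replicate 2 (0.026) and without vehicle replicate 1 (0.00037), and it was -0.057 without DHA replicate 3, -0.056 without vehicle replicate 3 and -0.0044 without vehicle replicate 2.

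**Figure D1:**
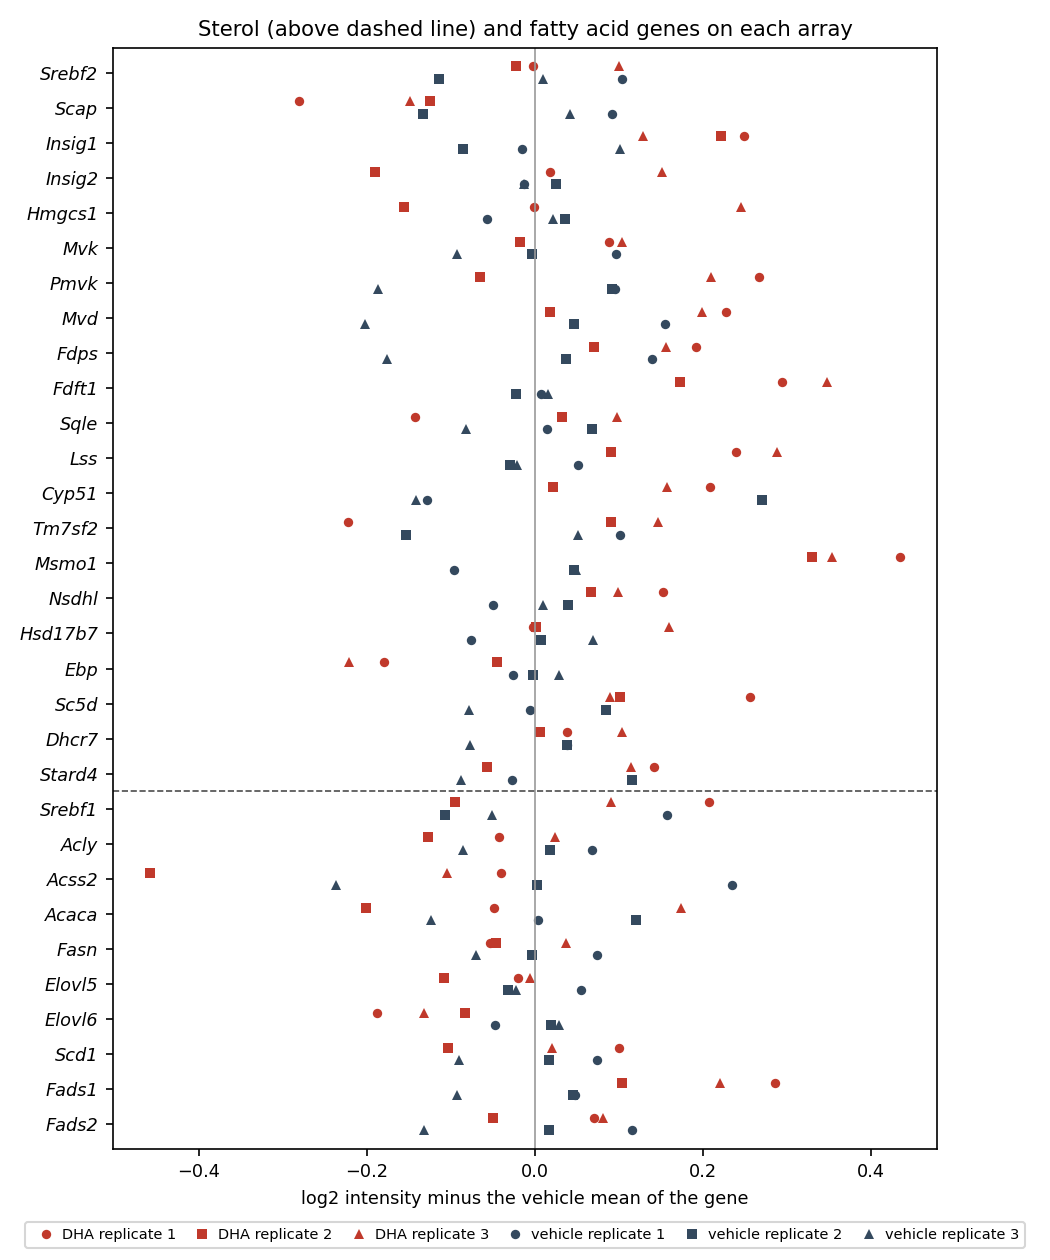
Each row is 1 gene and each point 1 array, as log2 intensity minus the mean of the 3 vehicle arrays of that gene, with DHA arrays in red above vehicle arrays in dark blue. All 3 DHA points of Msmo1, Fdft1, Lss, Insig1, Nsdhl, Sc5d and Fads1 lie right of the vehicle points, and those of Ebp and Elovl6 lie left of them.

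Among the regulators, Insig1 was higher with DHA, while the transcription factor genes differed little. Insig1, itself a well known SREBP target, had log2 intensities of 10.46, 10.43 and 10.34 in DHA samples, against 10.20, 10.13 and 10.31 in vehicle samples. The groups did not overlap, although the nearest pair, DHA replicate 3 and vehicle replicate 3, lay close together. The difference was 0.20 on the log2 scale (limma adjusted p = 0.308), with an SE of 0.065 and a 95% interval of 0.046 to 0.35. Its relative Insig2, which has the same anchoring role, had 7.53, 7.32 and 7.66 in DHA samples, against 7.50, 7.54 and 7.50 in vehicle samples. The DHA samples lay on both sides of the vehicle samples, and the log2 fold change was -0.0070 (95% interval -0.21 to 0.20; limma adjusted p = 0.984).

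Scap, the escort and sterol sensor, lay on the low side with DHA. It had 9.24, 9.40 and 9.37 in DHA samples, against 9.62, 9.39 and 9.57 in vehicle samples. The groups overlapped through vehicle replicate 2, and the log2 fold change was -0.18 (SE 0.076; limma adjusted p = 0.406). A dimmer probe set of Scap had a log2 fold change of -0.033. Srebf2 had 10.38, 10.36 and 10.48 in DHA samples, against 10.49, 10.27 and 10.39 in vehicle samples, which is a difference of 0.025 (95% interval -0.14 to 0.19; limma adjusted p = 0.913). Srebf1 had 9.01, 8.71 and 8.89 in DHA samples, against 8.96, 8.70 and 8.75 in vehicle samples, which is a difference of 0.067 (95% interval -0.17 to 0.31; limma adjusted p = 0.826). For both factors the groups overlapped, and transcript levels say nothing of how much precursor was cleaved.

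In the early steps of the sterol pathway, from acetyl-CoA units through mevalonate to squalene, each of the 6 measured genes was nominally higher with DHA, by a median of 0.14 on the log2 scale. Fdft1, which encodes squalene synthase and commits isoprenoid units to sterols, had the largest difference of the 6. It had 10.51, 10.39 and 10.57 in DHA samples, against 10.22, 10.19 and 10.23 in vehicle samples. The vehicle samples were tightly grouped and every DHA sample lay above them. Levels were 1.21-fold those of vehicle samples, a log2 fold change of 0.27 with an SE of 0.057 and a 95% interval of 0.14 to 0.41 (limma adjusted p = 0.150).

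The other 5 genes overlapped between the groups. Fdps, which makes farnesyl diphosphate, had 11.15, 11.03 and 11.12 in DHA samples, against 11.10, 11.00 and 10.78 in vehicle samples. Vehicle replicate 3 was the low sample, as it also was for the decarboxylase gene Mvd, with 8.30, 8.09 and 8.27 in DHA samples, against 8.23, 8.12 and 7.87 in vehicle samples. Log2 fold changes were 0.14 for Fdps, 0.15 for Mvd and 0.14 for the phosphomevalonate kinase gene Pmvk (limma adjusted p = 0.569, 0.619 and 0.678). The mevalonate kinase gene Mvk had 0.058 (limma adjusted p = 0.762). Hmgcs1, which encodes HMG-CoA synthase at the entry of the pathway, had 10.21, 10.06 and 10.46 in DHA samples, against 10.16, 10.25 and 10.24 in vehicle samples. Its DHA samples were spread on both sides of the vehicle samples, and the log2 fold change was 0.030 (95% interval -0.21 to 0.27; limma adjusted p = 0.933).

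In the later steps, from squalene to cholesterol, 8 of 10 genes were nominally higher with DHA and 2 lower, with a median log2 fold change of 0.079. Msmo1, a methylsterol monooxygenase that removes methyl groups from the sterol ring, had the smallest p-value of all 31 genes. It had 9.18, 9.08 and 9.10 in DHA samples, against 8.65, 8.80 and 8.80 in vehicle samples. The lowest DHA sample lay clearly above the highest vehicle sample. Levels were 1.29-fold those of vehicle samples, a log2 fold change of 0.37 with an SE of 0.060 and a 95% interval of 0.23 to 0.52 (limma adjusted p = 0.0974). Its unadjusted p of 0.000502 in limma ranked 80 among the 15526 tested genes, and 1.05% of tested genes had a larger log2 fold change.

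Lss, lanosterol synthase, which folds the squalene chain into the first sterol, had 8.32, 8.17 and 8.37 in DHA samples, against 8.13, 8.05 and 8.06 in vehicle samples. Every DHA sample was above every vehicle sample, and DHA replicate 2 was the nearest to them. The log2 fold change was 0.21 (SE 0.064; limma adjusted p = 0.291). Sqle, squalene epoxidase, catalyses the step just before Lss and is commonly counted as rate-limiting. It had 9.78, 9.96 and 10.02 in DHA samples, against 9.94, 9.99 and 9.84 in vehicle samples, and the groups overlapped. Its log2 fold change was -0.0042 (95% interval -0.19 to 0.18; limma adjusted p = 0.990). The genes of the steps before and after it, Fdft1 and Lss, had 0.27 and 0.21, and the difference between them and Sqle was not tested.

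Of the later enzymes, Sc5d, a sterol desaturase, and Nsdhl, a sterol dehydrogenase, had higher values in every DHA sample. Sc5d had 10.59, 10.43 and 10.42 in DHA samples, against 10.33, 10.42 and 10.25 in vehicle samples, a difference of 0.15 (limma adjusted p = 0.457). Nsdhl had 10.35, 10.26 and 10.29 in DHA samples, against 10.15, 10.24 and 10.21 in vehicle samples, a difference of 0.11 (limma adjusted p = 0.459). In both genes the nearest samples of the groups differed by less than 0.03 on the log2 scale. Ebp, the sterol isomerase, went the other way, with 8.89, 9.03 and 8.85 in DHA samples, against 9.04, 9.07 and 9.10 in vehicle samples. Every DHA sample was below every vehicle sample, again by a narrow margin, and the log2 fold change was -0.15 (SE 0.059; limma adjusted p = 0.390).

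The remaining enzymes overlapped between the groups. Cyp51, lanosterol demethylase, had 9.58, 9.39 and 9.53 in DHA samples, against 9.24, 9.64 and 9.23 in vehicle samples. Vehicle replicate 2 was the highest of the 6 samples, and the log2 fold change of 0.13 had an interval of -0.15 to 0.41 (limma adjusted p = 0.706). Log2 fold changes were 0.052 for Hsd17b7, a ketosterol reductase, 0.049 for Dhcr7, a reductase of the last steps, and 0.0048 for the sterol reductase gene Tm7sf2. Stard4, which carries sterols between membranes, had 0.066. Limma adjusted p-values of these 4 genes ran from 0.758 to 0.992.

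**Figure D2:**
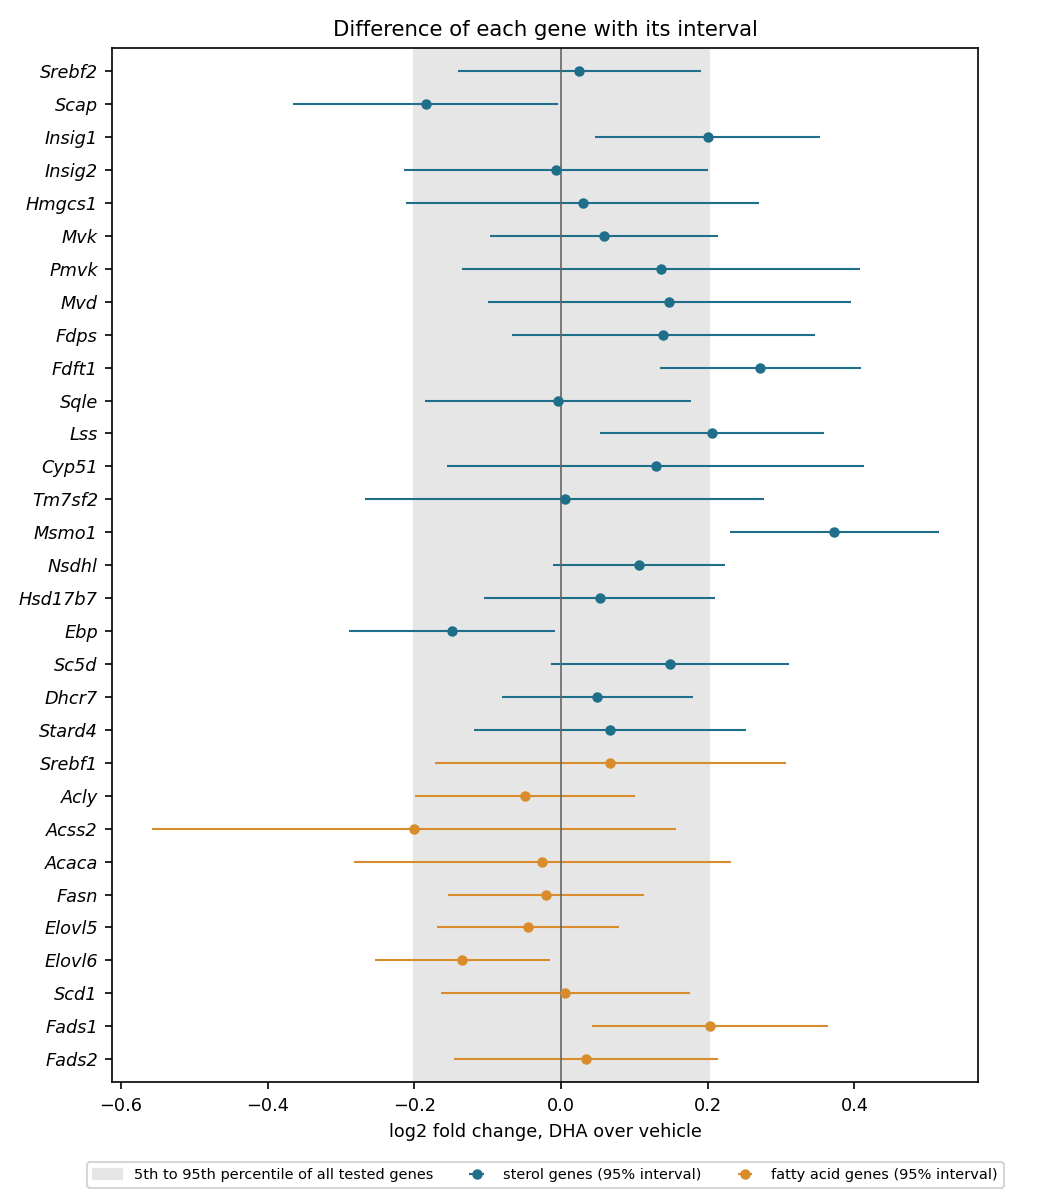
Points are log2 fold changes, DHA over vehicle, with 95% limma intervals that are not adjusted for the number of genes, and the grey band spans the 5th to 95th percentile of all tested genes (-0.20 to 0.20). Msmo1 (0.37) and Fdft1 (0.27) lie well outside the band, while Lss, Insig1, Fads1, Acss2 and Scap lie near its edges.

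Fatty acid genes were near their vehicle levels or slightly below them up to palmitate. Acly, which makes cytosolic acetyl-CoA from citrate, had 10.93, 10.85 and 11.00 in DHA samples, against 11.05, 11.00 and 10.89 in vehicle samples. Fasn, the fatty acid synthase, had 11.27, 11.28 and 11.37 in DHA samples, against 11.40, 11.32 and 11.26 in vehicle samples. Log2 fold changes were -0.049 for Acly (95% interval -0.20 to 0.10), -0.021 for Fasn (-0.15 to 0.11) and -0.025 for Acaca, the acetyl-CoA carboxylase (-0.28 to 0.23), with limma adjusted p-values of 0.795, 0.911 and 0.948. The groups overlapped in all 3. Acss2, which makes acetyl-CoA from acetate, lay nearest to the filter level, with 5.88, 5.46 and 5.81 in DHA samples, against 6.15, 5.92 and 5.68 in vehicle samples. It varied widely within both groups, and the log2 fold change of -0.20 had an interval of -0.56 to 0.16 (limma adjusted p = 0.641).

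The elongases and desaturases differed among themselves. Elovl6, which lengthens palmitate, had 12.15, 12.25 and 12.21 in DHA samples, against 12.29, 12.36 and 12.37 in vehicle samples. Every DHA sample was lower, by a log2 fold change of -0.13 with an SE of 0.050 and a 95% interval of -0.25 to -0.015 (limma adjusted p = 0.363). Elovl5, an elongase of polyunsaturated fatty acids, had -0.045 (limma adjusted p = 0.769). Scd1, the stearoyl-CoA desaturase that makes monounsaturated fatty acids, had 12.29, 12.09 and 12.21 in DHA samples, against 12.27, 12.21 and 12.10 in vehicle samples. Its groups overlapped fully, with a log2 fold change of 0.0059 (95% interval -0.16 to 0.18; limma adjusted p = 0.983).

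Fads1 and Fads2 encode the desaturases that introduce double bonds into polyunsaturated fatty acids. Fads1 had 10.89, 10.70 and 10.82 in DHA samples, against 10.65, 10.65 and 10.51 in vehicle samples. Every DHA sample was higher, and the log2 fold change was 0.20 (SE 0.068; limma adjusted p = 0.322). Fads2 had 11.96, 11.84 and 11.97 in DHA samples, against 12.00, 11.90 and 11.76 in vehicle samples. Its groups overlapped, with a log2 fold change of 0.034 (95% interval -0.15 to 0.21; limma adjusted p = 0.891).

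Setting related genes against each other within each array removes shifts that an array applies to both. The pairs were chosen after the data were seen, so their p-values are descriptive and do not hold their nominal rate. The Fads1 to Fads2 log2 ratio was -1.07, -1.13 and -1.15 in DHA samples, against -1.35, -1.26 and -1.25 in vehicle samples. These groups did not overlap and differed by 0.17 (two-sided exact permutation p = 0.1, the smallest that 3 against 3 samples allow, and 0.4 adjusted over 4 pairs). Because probe sets differ in brightness, only the change of such a ratio can be read. The Insig1 to Insig2 ratio differed by 0.21, with overlap (exact permutation p = 0.3, adjusted 0.4). Elovl6 relative to Elovl5 differed by -0.090 (exact permutation p = 0.2, adjusted 0.4), and Srebf2 relative to Srebf1 by -0.042 (exact permutation p = 0.9, adjusted 0.9).

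**Figure D3:**
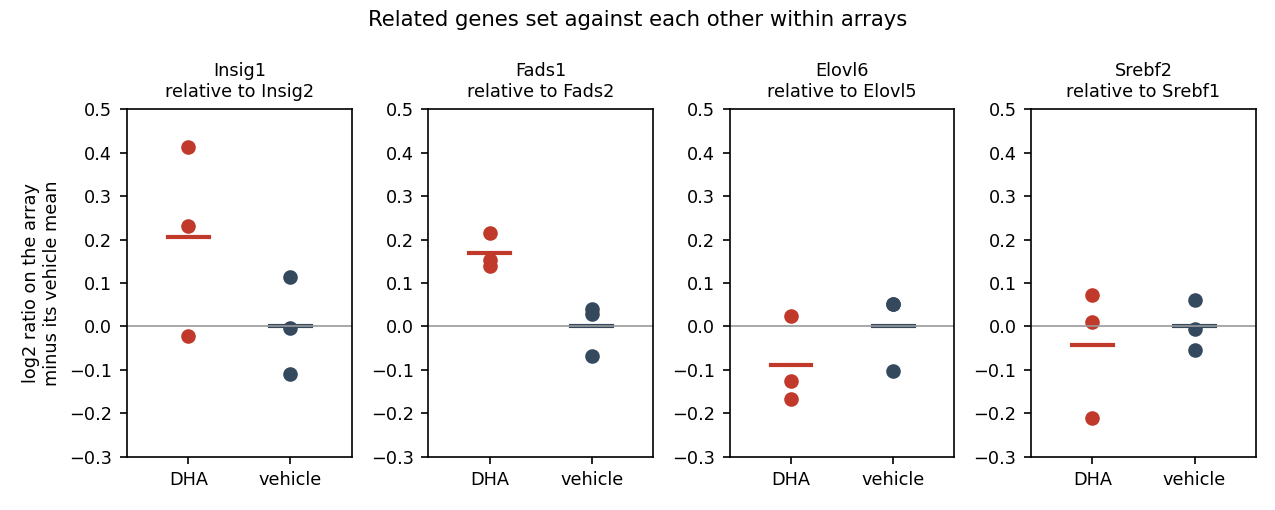
Points are log2 ratios of 2 related genes on each array, minus the vehicle mean of that ratio, and bars are group means, with DHA left of vehicle in each panel. Only for Fads1 relative to Fads2, with a difference of 0.17, do the DHA points all lie apart from the vehicle points.

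Single arrays moved many of these genes together. For each array, the deviation of every gene from its 6-array mean was taken, and the median over the genes is given. Sterol genes had medians of 0.099, -0.019 and 0.093 in DHA samples, against -0.0090, -0.019 and -0.10 in vehicle samples. DHA replicate 2 thus lay among the vehicle samples, and vehicle replicate 3 lay lowest. Fatty acid genes had 0.027, -0.094 and 0.048 in DHA samples, against 0.081, 0.010 and -0.089 in vehicle samples, so DHA replicate 2 and vehicle replicate 3 were both low. Over all tested genes the medians were within 0.01 of 0 on each array. Normalization equalises arrays and tends to hold that median near 0, so the contrast with the 2 pathways was partly fixed in advance.

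These 2 arrays share a number in their sample titles, which the labels do not explain. DHA replicate 2 was the lowest DHA sample in 22 of 31 genes (71.0%), against 35.9% of all tested genes. Vehicle replicate 3 was the lowest vehicle sample in 16 of 31 (51.6%), against 32.3%. Both held together in 13 of 31 genes (41.9%), against 15.5%, and the 13 were 7 sterol genes, among them Mvk, Pmvk, Mvd and Fdps, and 6 fatty acid genes, among them Acly, Acss2 and Acaca. In a limma fit with a term for the shared number, the pair differed from the other 4 arrays by a median log2 value of -0.090 over sterol genes and -0.15 over fatty acid genes, against -0.0089 over all tested genes. By this term limma called 0 genes of the array (0%) at an adjusted p of 0.05. At an unadjusted p at or under 0.05 it gave 4 of 21 sterol and 6 of 10 fatty acid genes, against 8.84% of all tested genes (1372). The pair holds the same share of each group, so this fit could not change any log2 fold change for DHA. The medians of 0.066 and -0.023 were therefore fixed in advance, and only SEs and p-values could move. With the term, limma called 0 of the 31 genes for DHA, against 0.264% of all tested genes. At an unadjusted limma p at or under 0.05 it gave 10 of the 31 (13.4% of all tested genes), and without the term there were 8 of the 31 (12% of all tested genes).

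**Figure D4:**
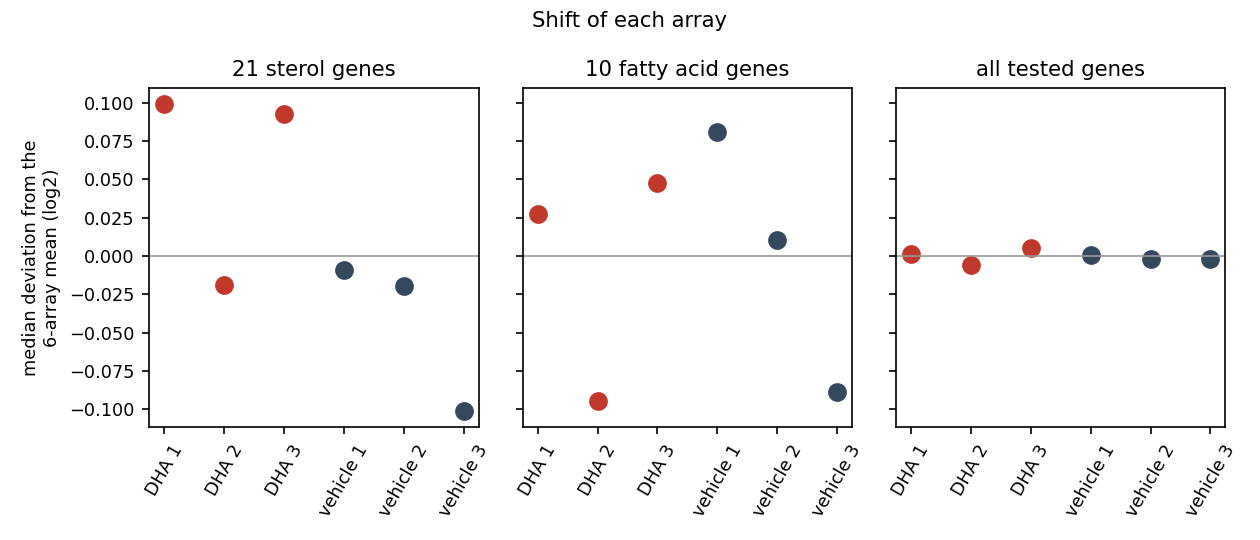
Points are the median deviation from the 6-array mean on each array, on the log2 scale, for sterol genes, fatty acid genes and all tested genes. DHA 2 and vehicle 3 are the lowest of their groups in both pathways, while all tested genes stay near 0, where normalization tends to hold them.

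The gap between the pathways was steadier across arrays than either pathway alone. The sterol median minus the fatty acid median was 0.072, 0.076 and 0.045 in DHA samples, against -0.090, -0.030 and -0.012 in vehicle samples. The DHA and vehicle samples did not overlap on this difference, which was not tested because the genes were chosen with results of these data known. As a difference between the 2 median log2 fold changes it was 0.089. The groups of a single gene did not overlap in 15.8% of all tested genes. That share is not the rate for a gap between medians of chosen lists, which was not measured.

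Other genes of cholesterol handling and of the control of SREBPs also gave no call, with 0 up and 0 down in each of the 5 lists. Only 0.0902% of all tested genes were called, so these counts lie near that background. In the order of lists below, every DHA sample was higher in 9.52%, 11.8%, 7.14%, 8.82% and 0% of genes (7.64% of all tested genes). Every DHA sample was lower in 14.3%, 23.5%, 21.4%, 17.6% and 11.1% (8.19% of all tested genes). Of 21 tested further sterol-related genes, most of them of uptake, storage and transport, 11 were nominally higher and 10 lower, with a median of 0.0060. The lipoprotein receptor gene Vldlr had 6.32, 5.89 and 6.03 in DHA samples, against 5.48, 5.26 and 5.40 in vehicle samples. Every DHA sample was higher, and its log2 fold change of 0.70 was larger than that of any of the 31 genes (SE 0.12; limma adjusted p = 0.104). The lysosomal lipase gene Lipa (-0.19), the sterol-regulated gene Tmem97 (-0.25) and the lipoprotein receptor gene Lrp8 (-0.16) were lower in every DHA sample, with limma adjusted p-values of 0.221, 0.240 and 0.319.

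Of 17 tested genes around SREBP processing and sterol-regulated degradation, 6 were nominally higher and 11 lower (median -0.085). Rnf145, a ubiquitin ligase of the endoplasmic reticulum, lay between 8.90 and 9.12 in DHA samples, against 9.31 to 9.63 in vehicle samples. Its log2 fold change was -0.45 (SE 0.096; limma adjusted p = 0.155). Ufd1, which helps extract proteins for degradation, had 0.29 (limma adjusted p = 0.172), Tbl2 -0.27 (limma adjusted p = 0.259) and the coat protein gene Sec23a -0.14 (limma adjusted p = 0.328).

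Of 14 tested genes of the isoprenoid branch, which leaves the sterol pathway for dolichol, ubiquinone and protein prenylation, 5 were nominally higher and 9 lower (median -0.048). Those with the smallest p were the dolichol kinase gene Dolk (-0.18), Nus1 (-0.19), the prenyltransferase subunit gene Fnta (-0.21) and Trit1 (0.13), with limma adjusted p-values from 0.321 to 0.401. Of 34 tested further genes of fatty acid metabolism, 18 were nominally higher and 16 lower (median 0.0022). Hacd3 (-0.34) and Hacd1 (-0.38), dehydratases of fatty acid elongation, were lower in every DHA sample. So was the fatty acid binding protein gene Fabp5 (-0.37). Mid1ip1, which promotes acetyl-CoA carboxylase polymerisation, was higher in every DHA sample (0.29). Limma adjusted p-values of these genes ran from 0.141 to 0.241. Fabp5 had 4 probe sets of its own and Mid1ip1 had 3, and only the brightest of each is given. Of 9 tested genes of the liver X receptor and sterol efflux, 4 were nominally higher and 5 lower (median -0.029), with Nr1h3 at 0.14, Rxra at -0.12, Rxrb at 0.11 and Lpcat3 at -0.098 (limma adjusted p-values from 0.467 to 0.688).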

How the data were processed

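The authors deposited a log2 intensity for each probe set in each sample, using Partek version 6.6 and the RMA method (robust multi-array average), per the submitters' processing notes, with settings not stated. RMA equalises arrays and tends to compress the fold changes of dim genes. Of 41345 probe sets, 23521 were annotated with 1 gene, 1814 with several, and 16010 were not named by the annotation. Symbols were updated through Entrez identifiers to RefSeq, which matched 23328 probe sets. Genes whose 6-array mean lay under the 30th percentile (4.52) were left out, 6654 in all. The test of DHA against vehicle was run in limma (version 3.58.1, R version 4.3.3; two-sided, residual degrees of freedom 4, prior 2.77), with Benjamini-Hochberg adjustment over all 15526 tested genes. Intervals are 95%. The procedure was tested on simulated data, whose outcome is not given here and lends no support to the values. All 31 measured members are named, and of each list of related pathways up to 4 tested genes with the smallest p. The B-cell markers named were picked from a list of 18 after their values were seen. Members, lists and alternatives were chosen with earlier results of these data known. Precision is limited by having 3 arrays in each group.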

Additional observations from a re-analysis of the deposited data

How the results depend on the processing

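No paired analysis was possible because the groups share 1 title number only and the replicate numbers came from accession order. None of the 31 genes was called at an adjusted p of 0.05 under any of 15 alternatives. The lowest adjusted p there was 0.060 in limma, for Msmo1 with the 50th percentile filter. Of the 31 genes, 20 kept their sign in all 15. Several of the 15 could not turn a sign, so that count overstates how far signs were tried. Other filters, other moderation and the title number term leave each log2 fold change as it was. Other choices of probe set can change only Scap. On leaving out 1 array, ranges that crossed 0 were -0.032 to 0.077 for Srebf2, -0.086 to 0.085 for Insig2, -0.078 to 0.12 for Hmgcs1, -0.055 to 0.065 for Sqle, -0.072 to 0.12 for Tm7sf2, -0.00086 to 0.087 for Hsd17b7, -0.0028 to 0.15 for Srebf1, -0.12 to 0.063 for Acaca, -0.056 to 0.016 for Fasn, -0.041 to 0.060 for Scd1 and -0.032 to 0.092 for Fads2. Other sign changes were Insig2 (0.0036) and Sqle (0.0033) under quantile normalization and, with both arrays of the shared title number left out, Insig2 (0.079), Tm7sf2 (-0.012) and Acaca (0.00053). The sterol median ranged from 0.042 to 0.13 on leaving out 1 array, with 13 (without DHA replicate 3) to 18 of 21 genes higher. The fatty acid median ranged from -0.057 to 0.026, crossing 0 without DHA replicate 2 and without vehicle replicate 1. The sterol minus fatty acid difference ranged from 0.077 to 0.13 and was 0.12 with both arrays of the shared title number left out. The count of called genes over the whole array, 14, was 24 without DHA replicate 2 and 0 without any other single array, with 1356 to 1710 genes at an unadjusted p at or under 0.05 in limma where it was 0. Quantile normalization gave 63, median centring 52, a filter at the 50th percentile 62, no filter 5, trend and robust moderation 62, a term for the title number 41, and leaving out both samples that share it 0 (1569 genes at an unadjusted p at or under 0.05 in limma). An adjusted p of 0.1 as threshold gave 80, among them Msmo1 (limma adjusted p = 0.0974). Some of these settings hold fewer samples or genes by construction, and beyond that the cause was not tested. Acss2 and Tm7sf2 lie nearest to the filter level. The comparisons of related genes were added after seeing the data. Over the 15 alternatives, Fads1 relative to Fads2 ranged from 0.14 to 0.20, Insig1 relative to Insig2 from 0.10 to 0.32, Elovl6 relative to Elovl5 from -0.15 to -0.051 and Srebf2 relative to Srebf1 from -0.10 to 0.041.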

Other observations

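A probe set that the annotation pairs with both Idi1 and Gm13502 (17285056) had log2 intensities of 9.82, 9.98 and 9.83 in DHA samples, against 9.83, 10.11 and 9.83 in vehicle samples. A probe set paired with both Scd2 and Mir5114 (17359689) had 12.82, 12.68 and 12.80 in DHA samples, against 12.72, 12.73 and 12.64 in vehicle samples. The groups overlapped in both, and the values are not assigned to either gene of a pair.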
